A study of Mus musculus with 10 samples.

Results

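The genes described here encode respiratory complexes II, III, IV and V, the electron carrier cytochrome c, and assembly factors that share their name prefixes. They were taken from the deposited comparison as every row whose symbol starts with Sdha, Sdhb, Sdhc, Sdhd, Uqcr, Atp5 or Cox and a digit, or is Cyc1 or Cycs. The rule found 59 of 23337 rows, and 58 had a base mean (the average normalized count over all libraries) above 0. Cox8c, another gene for subunit 8, was listed at 0. The 58 genes were 4 subunits and 2 assembly factors of complex II, 9 subunits of complex III, 1 cytochrome c, 17 subunits and paralogs of complex IV, 7 assembly factors of complex IV and 15 subunits of complex V. A further 3 genes carry the prefixes without being subunits.

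All samples came from wild-type mice and were cardiomyocytes, the contracting cells of the heart. Both groups received adeno-associated virus AAV9 on postnatal day 1 at 5e+08 viral genomes per gram, and cells were taken on postnatal day 14 by collagenase perfusion and fluorescence-activated sorting. The virus carried GFP alone in the 5 libraries labelled GFP, and dnMKL1 with GFP in the 5 libraries labelled dnMKL1, each behind the cTNT promoter, which is active in cardiomyocytes. dnMKL1 is a dominant-negative form of MKL1, a coactivator of serum response factor. Sorting, virus and GFP were therefore common to both groups, and the comparison asks how transcripts differ when dnMKL1 is present.

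In the mitochondrial inner membrane, complex II passes electrons from succinate to ubiquinone, complex III passes them on to cytochrome c, and complex IV passes them to oxygen. Complexes III and IV pump protons, and complex V, the ATP synthase, uses the proton gradient to make ATP. The heart has a very high density of these complexes. Several small subunits of complex IV exist as a heart and muscle isoform and a widely expressed, so-called liver isoform, each encoded by its own gene, and the muscle isoforms largely replace the liver isoforms as the heart matures.

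The deposited file holds 1 comparison and no values per library. Each gene is therefore given by its implied group means, that is the means in normalized counts that its base mean and fold change require with 5 libraries in each group, and by its log2 fold change with the standard error (SE). Whether groups overlapped library by library could not be seen. Library totals estimated from the authors' size factors ran from 8803028 to 17123577 counts in the GFP group and from 8835136 to 17228616 in the dnMKL1 group. Mkl1 had a log2 fold change of 9.80 in the authors' deposited table, from which the direction was read: positive values mean higher in dnMKL1. Among markers of the sorted cells, Myh6, Tnnt2, Actc1 and Tnni3 had base means from 55854 to 594986 in the authors' deposited table. The skeletal muscle gene Myog was listed at 0, but so were Ndufs5 and Sco2, which most cells use, so a 0 in this file is not read as absence. RNA per cell and number of cells cannot be told apart in such samples.

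Transcripts of these complexes were lower in dnMKL1 libraries, with 2 exceptions that rose. By the authors' adjusted p-value under 0.05 (a Wald test in a table with the columns of a DESeq2 result, Benjamini-Hochberg adjusted over all genes tested), 47 of the 58 genes fell, 2 rose (Cox6a1 and Cox8a) and 9 did not pass. Over all 14056 genes tested, 17.4% fell and 16.6% rose. The median log2 fold change of the 58 genes was -0.59, with values from -1.08 to 0.87, against 0.021 over all genes tested. Summed over the 58 genes, the implied mean went from 792742 to 497774 normalized counts, or from 5.95% to 4.56% of all counts. These directions are relative to the authors' size factors. When both groups were scaled to the same total count, which adds 0.29 to every log2 fold change, 33 of the 58 genes fell and 4 rose, and over all genes 927 fell and 5685 rose.

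Many of the members are among the most abundant transcripts of the cell, and abundant transcripts in general were lower. Atp5b had the 5th and Atp5a1 the 9th largest base mean of the whole table, and 13 members were among the first 100 genes. At a base mean of 10000 or more, 17 of 17 members fell, with a median log2 fold change of -0.74, while 66.7% of the 123 other genes fell and 4.07% rose, with a median of -0.53. Between 1000 and 10000, 22 of 26 members fell and 2 rose, with a median of -0.58. Among the 1960 other genes tested in that range 39.5% fell and 14.5% rose, and the median of the 1962 with a fold change was -0.13. Between 100 and 1000, 8 of 12 members fell, with a median of -0.40, while 19.2% of other genes fell and 20% rose, with a median of 0.0078. The members' median was thus below that of other genes in each of these 3 ranges. Lower ranges held few members, and there it lay above. It was 0.79 for 2 members against 0.25 for other genes at base means from 1 to 10. From 10 to 100 the 1 member had 0.56, against a median of 0.14. The part of expression level in the result was not tested.

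**Figure D1:**
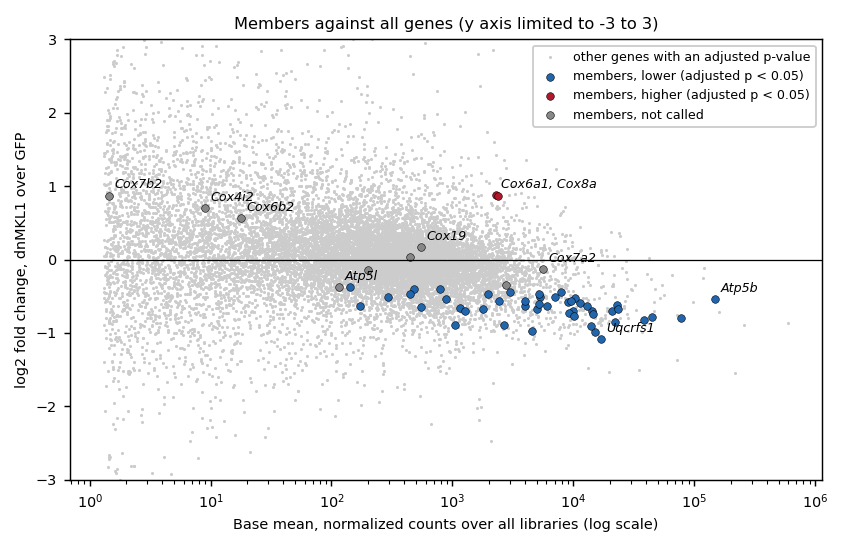
Base mean (x axis, normalized counts, log scale) against log2 fold change of dnMKL1 over GFP (y axis) for all genes with an adjusted p-value (grey) and for the 58 members, coloured by call; 102 genes lie outside the y axis. The abundant members lie below 0, with values down to -1.08 for Uqcrfs1, while Cox6a1 and Cox8a lie at 0.87.

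Complex II, or succinate dehydrogenase, is also an enzyme of the citric acid cycle, and all 4 of its subunit genes fell. Sdha, the flavoprotein that oxidises succinate, had implied means of 48951 normalized counts in GFP and 27516 in dnMKL1, with a log2 fold change of -0.83 (SE 0.10, adjusted p = 1.1e-14) in the authors' deposited table. Sdhb, the iron-sulfur subunit, went from 19916 to 10080, and the authors' deposited table gave -0.98 (SE 0.13, adjusted p = 1.1e-12). The membrane anchors Sdhc and Sdhd, which hold the heme and the ubiquinone site, were at -0.67 (SE 0.12) and -0.70 (SE 0.10) on the log2 scale in the authors' deposited table. The dnMKL1 level was thus between 50.6% and 62.9% of the GFP level for every subunit of this complex. Its assembly factors Sdhaf1, needed for the iron-sulfur clusters, and Sdhaf2, which helps to attach flavin to Sdha, fell to 70.2% (95% interval 58.1 to 84.8) and 69.1% (95% interval 60.7 to 78.6) of the GFP level. Sdhaf1 lost its call under total-count scaling (log2 fold change -0.22, adjusted p = 0.19). Of the other factors of this complex, Sdhaf4 is listed as 1110058L19Rik and fell, with -0.55 (SE 0.12, adjusted p = 5.5e-05) in the authors' deposited table, and Sdhaf3, listed as Acn9, had -0.14 (SE 0.18, adjusted p = 0.60).

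All 9 subunit genes of complex III fell, and those of the redox and core subunits had lower log2 fold changes than those of the small subunits. Uqcrfs1, the Rieske iron-sulfur protein that takes the first electron from ubiquinol, had the lowest log2 fold change of all 58 genes. Its implied mean went from 22875 to 10819 normalized counts, and the authors' deposited table gave -1.08 (SE 0.14, adjusted p = 4.9e-13). Cyc1, the cytochrome that hands electrons to cytochrome c, went from 28216 to 15657 (-0.85, SE 0.13, in the authors' deposited table). The core proteins Uqcrc1 and Uqcrc2 were at -0.79 (SE 0.12) and -0.91 (SE 0.12) on the log2 scale in the authors' deposited table. These 4 genes had a median of -0.88, and their values did not overlap those of the 5 small subunits, whose median was -0.51. Some of the 95% intervals did overlap, as for Uqcrc1 (49.4% to 67.8% of the GFP level) and Uqcrq (53.9% to 76.7%). Others did not, as for Uqcrfs1 (39.1% to 57.2%) and Uqcr10 (60.2% to 89.5%). Whether the 4 genes differ from the 5 small subunits was not tested.

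Among those 5, Uqcrq and the hinge protein gene Uqcrh were at -0.64 (SE 0.13) and -0.61 (SE 0.13) on the log2 scale in the authors' deposited table. Uqcrb had -0.51 (SE 0.14), Uqcr11 -0.47 (SE 0.16) and Uqcr10 -0.45 (SE 0.15) in the authors' deposited table. Expression and coding length divided these genes in the same way. The 4 core and redox genes had base means of at least 13980 and coding sequences of 822 to 1440 bases. The 5 small ones had base means up to 6033 and coding sequences of 168 to 333 bases. Among the 4, neither followed the order of the falls. Uqcrc1 had the largest base mean (44490) and the longest coding sequence but the smallest fall (-0.79). The part of either in the difference between the 4 and the 5 genes was not tested. Uqcrb, Uqcr10 and Uqcr11 lost their call under total-count scaling, with log2 fold changes of -0.22, -0.16 and -0.18. Cycs, the gene of cytochrome c, which carries electrons from complex III to complex IV and also triggers caspases when released, fell from 6054 to 3082 normalized counts. The authors' deposited table gave -0.97 (SE 0.16, adjusted p = 8.5e-09).

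**Figure D2:**
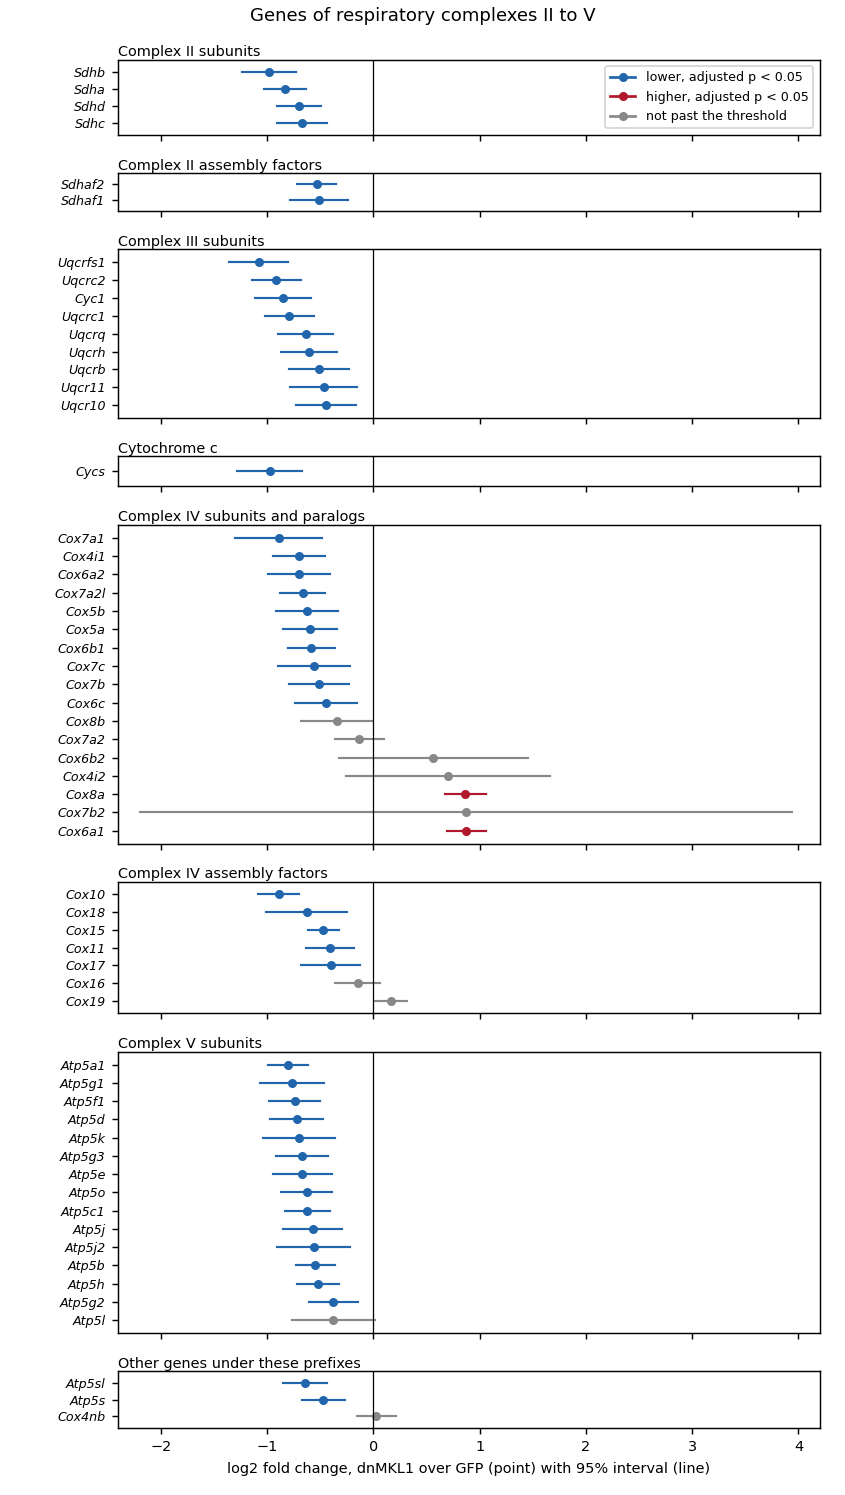
Log2 fold change of dnMKL1 over GFP (x axis) for each of the 58 genes, grouped by complex; points are the deposited values, lines their 95% intervals from the SE, and colours the call. All subunits of complexes II and III and 14 of 15 of complex V fell, while complex IV spreads from -0.89 (Cox7a1) to 0.87 (Cox6a1).

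Complex IV, cytochrome c oxidase, was the only one of the 4 complexes in which any gene rose, and it had the widest spread. Of its 17 subunit and paralog genes 10 fell, 2 rose and 5 did not pass, with a median log2 fold change of -0.51. The 4 nuclear subunits listed by a single gene all fell: Cox5a to 66.2%, Cox5b to 64.8%, Cox7c to 67.8% and Cox6c to 73.4% of the GFP level. Cox7c and Cox6c, and Cox7b below, lost their call under total-count scaling (log2 fold changes of -0.27, -0.16 and -0.22). Among the subunits with several genes, a rise that passed was seen only for 6a and 8. Subunits 6a and 8 each have a heart and muscle gene, Cox6a2 and Cox8b, and a liver-type gene, Cox6a1 and Cox8a. The liver-type gene rose in both.

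For subunit 6a, which sits at the dimer interface and takes part in regulation of the enzyme by nucleotides, the muscle gene Cox6a2 went from 12366 to 7616 normalized counts. The authors' deposited table gave -0.70 (SE 0.15, adjusted p = 2.7e-05). The liver-type gene Cox6a1 went from 1609 to 2948, with 0.87 (SE 0.09, adjusted p = 2.5e-18) in the authors' deposited table, a 1.83-fold rise (95% interval 1.61 to 2.08). The genes therefore moved in opposite directions. The log2 fold change of Cox6a1 minus that of Cox6a2 was 1.57, with an SE of at most 0.24 whatever the correlation between their errors (Wald bound, Benjamini-Hochberg adjusted p over 11 isoform pairs = 1.3e-09). Per kilobase of transcript, Cox6a2 held 87.5% of the pair's reads in GFP and 70.2% in dnMKL1. The sum of both per kilobase still fell, with a log2 ratio of -0.38.

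For subunit 8, a small membrane subunit, Cox8a went from 1678 to 3060 normalized counts, with 0.87 (SE 0.10, adjusted p = 3.2e-16) in the authors' deposited table, a 1.82-fold rise (95% interval 1.59 to 2.09). Cox8b, the muscle gene, went from 3092 to 2431 and did not pass (-0.35, SE 0.17, adjusted p = 0.11, in the authors' deposited table). The difference between their log2 fold changes was 1.21, with an SE of at most 0.27 (adjusted p = 4.1e-05, Wald bound over 11 pairs). Cox8b held 73.8% of the pair's reads per kilobase in GFP and 54.8% in dnMKL1. With the rise of Cox8a, the sum for this subunit did not fall, at a log2 ratio of 0.082 per kilobase.

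For subunit 7a, the muscle gene Cox7a1 fell from 3441 to 1858 normalized counts, with the lowest log2 fold change among complex IV subunits in the authors' deposited table (-0.89, SE 0.21, adjusted p = 1.5e-04). Cox7a2, the liver-type gene, went from 5877 to 5363 and did not pass (-0.13, SE 0.12, adjusted p = 0.44, in the authors' deposited table), and its log2 fold change turned to 0.16 under total-count scaling, where it did not pass either. Cox7a2 minus Cox7a1 was 0.76, with an SE of at most 0.33 and a 95% interval of 0.12 to 1.40 (adjusted p = 0.048, Wald bound over 11 pairs). Their paralog Cox7a2l, whose product joins complexes III and IV into supercomplexes, fell to 63.1% of the GFP level (95% interval 54.3 to 73.2). Its log2 fold change did not differ detectably from that of Cox7a1 (difference 0.22, 95% interval -0.40 to 0.85) but lay below that of Cox7a2 by 0.53 (SE at most 0.23, adjusted p = 0.048). In share of reads per kilobase over the 3 genes, Cox7a1 went from 41.1% to 30.0% and Cox7a2 from 51.7% to 63.8%. The muscle isoform thus held a smaller share in dnMKL1 in each of the 3 sets.

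**Figure D3:**
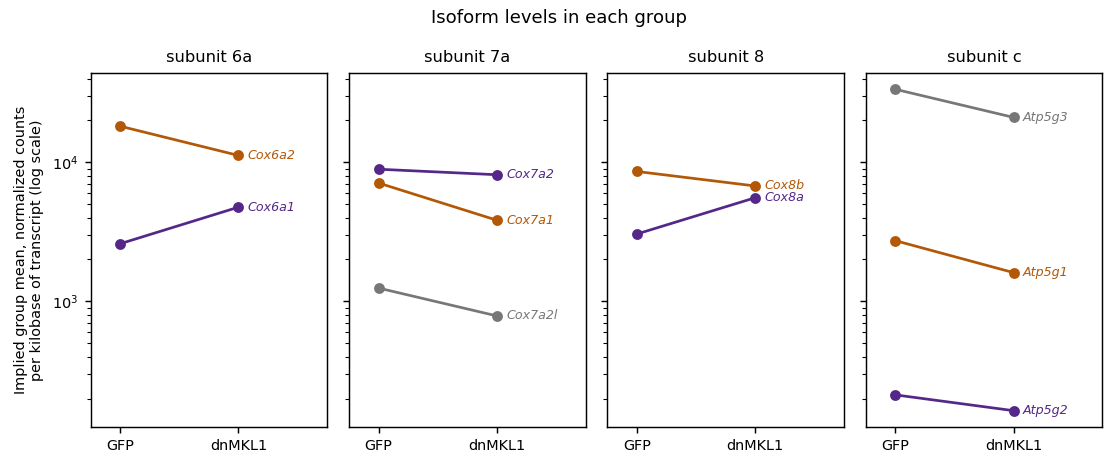
Implied group means per kilobase of transcript (y axis, log scale) in GFP and dnMKL1 for the genes of subunits 6a, 7a and 8 of complex IV and subunit c of complex V; each line joins the 2 group means of 1 gene, with no library values. The lines of Cox6a1 and Cox8a rise while those of the muscle genes Cox6a2, Cox7a1 and Cox8b and of all 3 Atp5g genes slope down. Those of the liver-type gene Cox7a2 and of Cox7a2l slope down as well, and Cox7a2 and Cox8b did not pass.

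**Figure D4:**
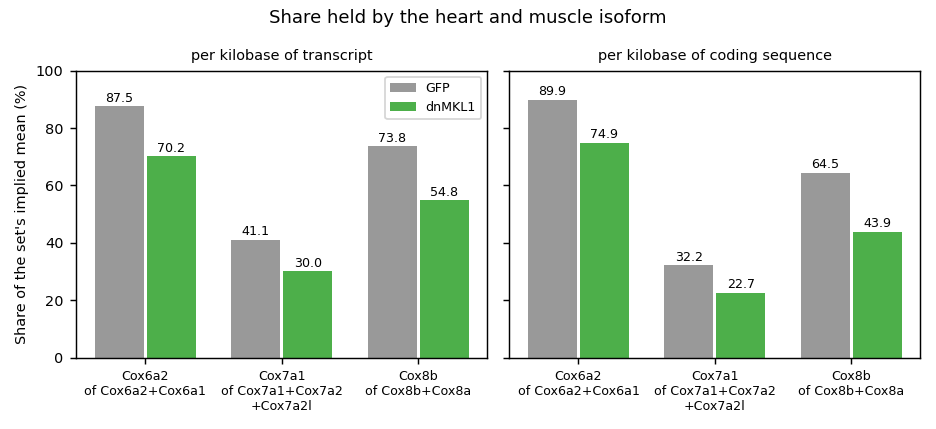
Share of a set's implied mean (y axis, percent) held by the heart and muscle isoform in GFP (grey) and dnMKL1 (green), per kilobase of transcript at left and of coding sequence at right; bars have no error because no library values are at hand. The share is smaller in dnMKL1 in each set by both lengths, as for Cox8b with 73.8% and 54.8% at left and 64.5% and 43.9% at right.

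Liver-type isoforms are also made by other cells of the heart, so markers of those cells are given here. Of 6 fibroblast markers 3 rose (the collagen genes Col1a1, Col1a2 and Col3a1) and 0 fell, while 16.6% of all genes tested rose. Pdgfra, Dcn and Lum did not pass, with log2 fold changes of 0.063, 0.27 and 0.25. The summed implied mean of the 6 went from 3188 to 4413 normalized counts, and that of Col3a1 alone from 1937 to 2625. Of 6 endothelial markers none passed in either direction in the authors' Wald test, 0 also had an unadjusted p-value under 0.05, and the sum went from 2239 to 2294. Of 6 mural markers 2 rose (Cspg4 and Myh11) and 1 fell (Acta2), and the sum went from 11753 to 7973. Most of that sum was Acta2, which went from 10454 to 4999 normalized counts. Pdgfrb, Rgs5, Cspg4, Myh11 and Notch3 had positive log2 fold changes, from 0.014 (Rgs5) to 2.01 (Cspg4). Of 6 macrophage markers 1 rose (Cd68), and the sum went from 143 to 127. None of these 24 markers was at 0. Among 8 cardiomyocyte markers 5 fell and 0 rose, and the sum went from 1533410 to 872396. The part of other cells in the rise of Cox6a1 and Cox8a was not tested.

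The regulatory sequence in front of these isoform genes is shown because the genes of one enzyme moved in different directions. Promoter windows are RefSeq's, on GRCm38.p6, from 250 bases before to 50 after the annotated start, 5′ to 3′ on the strand of the gene. Capitals mark CCGGAAG, a core bound by ETS factors such as GABPA, GCGCNTGCGC, bound by NRF1, and TATAAA, the TATA box, each on either strand, with a palindromic match counted once. The windows are chr5:115348909-115349208 (minus strand) for Cox6a1, chr19:7217567-7217866 (minus) for Cox8a, chr9:79759804-79760103 (minus) for Cox7a2, chr7:140900397-140900696 (minus) for Cox8b and chr7:30183921-30184220 (plus) for Cox7a1. The Cox7a2 window surrounds a start inside the gene, whose RefSeq span runs on to position 79771422, while the other 4 windows lie at the 5′ end of theirs. An entry for Cox6a2 was not at hand.
Cox6a1: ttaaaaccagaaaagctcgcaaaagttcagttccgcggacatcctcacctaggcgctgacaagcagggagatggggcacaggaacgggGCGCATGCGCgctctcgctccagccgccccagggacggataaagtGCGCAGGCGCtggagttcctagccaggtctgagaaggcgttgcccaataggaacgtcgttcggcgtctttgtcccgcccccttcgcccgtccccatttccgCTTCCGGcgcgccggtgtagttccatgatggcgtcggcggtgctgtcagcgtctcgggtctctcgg
Cox8a: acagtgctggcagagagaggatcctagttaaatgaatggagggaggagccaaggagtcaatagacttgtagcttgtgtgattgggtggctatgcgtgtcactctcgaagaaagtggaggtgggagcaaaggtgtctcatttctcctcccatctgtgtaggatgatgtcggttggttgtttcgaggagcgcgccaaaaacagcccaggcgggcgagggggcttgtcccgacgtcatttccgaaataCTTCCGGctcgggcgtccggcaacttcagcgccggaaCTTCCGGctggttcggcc
Cox7a2: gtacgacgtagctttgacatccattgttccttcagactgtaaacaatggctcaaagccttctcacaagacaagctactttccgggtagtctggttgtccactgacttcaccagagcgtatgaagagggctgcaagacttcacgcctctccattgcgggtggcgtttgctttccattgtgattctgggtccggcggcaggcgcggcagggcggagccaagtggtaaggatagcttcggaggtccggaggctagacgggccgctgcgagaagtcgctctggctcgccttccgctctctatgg
Cox8b: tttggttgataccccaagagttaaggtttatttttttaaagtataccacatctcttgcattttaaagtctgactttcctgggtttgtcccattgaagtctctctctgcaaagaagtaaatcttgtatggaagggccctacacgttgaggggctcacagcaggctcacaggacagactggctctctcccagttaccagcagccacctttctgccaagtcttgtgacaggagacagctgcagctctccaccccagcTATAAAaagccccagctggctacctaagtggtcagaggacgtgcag
Cox7a1: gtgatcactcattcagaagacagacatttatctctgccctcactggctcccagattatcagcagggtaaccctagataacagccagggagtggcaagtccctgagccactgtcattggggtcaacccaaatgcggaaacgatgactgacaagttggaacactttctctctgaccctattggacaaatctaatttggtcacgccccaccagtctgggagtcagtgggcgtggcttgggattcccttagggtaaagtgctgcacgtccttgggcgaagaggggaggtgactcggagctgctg

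The Cox6a1 window, of a gene that rose, holds 1 ETS core, starting 16 bases before the annotated start, and 2 NRF1 matches, starting 162 and 117 bases before it. The Cox8a window holds 2 ETS cores, starting 5 bases before and 32 bases after it. Neither motif is in the windows of Cox7a2, Cox8b and Cox7a1. The Cox8b window has the letters TATAAA starting 4 bases after the annotated start, not before it, and whether they act as a TATA box was not tested. The liver-type windows hold 32 (Cox6a1), 19 (Cox8a) and 20 (Cox7a2) CpG dinucleotides, against 7 in Cox7a1 and 2 in Cox8b and a median of 20 in promoters of genes tested.

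Over the 45 members with a promoter in the table (50 windows), the ETS core was found for 17, the NRF1 motif for 10, and the letters TATAAA for 4 (Atp5l, Cox10, Cox7b2 and Cox8b). Among 12693 promoter windows of genes tested, the same letters were in 15.8%, 9.10% and 7.41%, and among all 32851 windows in 8.86%, 4.60% and 13.6%. Members are counted here by gene and the percentages by window, so they are not directly comparable. AAGATGGCG, bound by YY1, was found for 4 members (Atp5j, Atp5j2, Atp5sl and Cox10) and in 2.65% of windows of genes tested. The CArG box bound by serum response factor was found for 0 of the 45 members and in 1.39% of windows of genes tested, and the MEF2 site for 0 and in 1.88%. ETS cores were found at members that fell, such as Sdhb and Sdhd, and at both that rose. These are matches of letters in a 300-base window.

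The remaining isoform genes of complex IV were dominated by 1 member. Cox4i1, subunit 4 and a site of regulation by ATP, fell from 25683 to 15818 normalized counts (-0.70, SE 0.12, adjusted p = 1.9e-07, in the authors' deposited table). Cox4i2, its lung and hypoxia form, had implied means of 6.83 and 11.1 and did not pass (0.70, SE 0.49, adjusted p = 0.29). Cox6b1, at the cytochrome c side, fell to 66.8% of the GFP level (95% interval 57.3 to 77.9). Cox6b2, its testis form, had 14.4 and 21.3 normalized counts and did not pass (0.56, SE 0.45, adjusted p = 0.37, in the authors' deposited table). Cox7b fell to 70.3% (95% interval 57.8 to 85.5), and its testis form Cox7b2 had implied means of 1.02 and 1.87, too few reads to place its direction (95% interval of the fold 0.218 to 15.3). For subunit 4 the minor form minus the major form was 1.40 (SE at most 0.61, adjusted p = 0.048, Wald bound), for subunit 6b 1.15 (SE at most 0.57, adjusted p = 0.080) and for subunit 7b 1.38 (95% interval -1.97 to 4.73). Minor forms held under 1% of these sets: Cox4i2 went from 0.028% to 0.073% of reads per kilobase, and Cox6b2 from 0.140% to 0.310%.

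Assembly factors named Cox10 to Cox19 fell in 5 of 7 cases, and differences between them were not tested. Cox10, which makes heme O, the precursor of the heme A found only in complex IV, fell from 1361 to 734 normalized counts (-0.89, SE 0.10, adjusted p = 4.9e-18, in the authors' deposited table). Cox15, which turns heme O into heme A, fell from 2308 to 1667 (-0.47, SE 0.08, adjusted p = 8.8e-09, in the authors' deposited table). Cox18, which inserts a domain of the mitochondrially encoded subunit 2, had low levels of 211 and 136 normalized counts and fell to 64.7% (95% interval 49.6 to 84.5).

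Copper is delivered to the enzyme by Cox17, Cox11 and Cox19, among others. Cox17, the copper chaperone of the intermembrane space, fell to 75.8% of the GFP level (95% interval 62.5 to 91.8), and Cox11 to 75.4% (95% interval 64.4 to 88.3). Cox19 went from 520 to 584 normalized counts and did not pass (0.17, SE 0.08, adjusted p = 0.076, in the authors' deposited table), but it passed at an adjusted p-value under 0.1 and under total-count scaling (0.46, adjusted p = 2.5e-08). Cox16 had 212 and 191 normalized counts and did not pass (-0.15, SE 0.11, adjusted p = 0.32, in the authors' deposited table), and its sign turned under total-count scaling (0.14). Under that scaling Cox11, Cox17 and Cox18 lost their calls, while Cox10 and Cox15 stayed lower. Cox14 and Cox20 are listed under the older symbols 2310016M24Rik and Fam36a: the first fell, with -0.39 (SE 0.15, adjusted p = 0.030) in the authors' deposited table, and the second had -0.20 (SE 0.16, adjusted p = 0.35).

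Of the 15 genes of complex V, 14 fell and none had a positive log2 fold change under the authors' scaling or total-count scaling. They fell within a narrow range, from -0.80 to -0.38 with a median of -0.63. The F1 head that makes ATP is built from alpha, beta, gamma, delta and epsilon subunits. Atp5b (beta), with the largest base mean of the members, went from 177543 to 121699 normalized counts, with -0.54 (SE 0.09, adjusted p = 1.4e-07) in the authors' deposited table. Atp5a1 (alpha) went from 99507 to 57005, with -0.80 (SE 0.10, adjusted p = 3.1e-15). Alpha and beta form 1 hexamer in equal number, and their 95% intervals, 50.3% to 65.2% and 60.3% to 78.0% of the GFP level, overlap. Whether they differ was not tested. The rotor genes Atp5c1, Atp5d and Atp5e fell to 65.0%, 60.6% and 62.9% of the GFP level.

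The peripheral stalk, which keeps the head from turning, is encoded by Atp5f1, Atp5h, Atp5j and Atp5o, and all 4 fell, with log2 fold changes from -0.74 (Atp5f1) to -0.52 (Atp5h). Atp5j and, among the membrane subunits, Atp5j2 lost their call under total-count scaling (-0.28 and -0.27). The membrane ring that turns with the passing protons is made of subunit c alone, whose identical mature protein comes from 3 genes with different targeting sequences. Atp5g3 went from 28866 to 18118 normalized counts (-0.67, SE 0.12, adjusted p = 7.4e-07, in the authors' deposited table) and Atp5g1 from 12872 to 7581 (-0.76, SE 0.15, adjusted p = 5.7e-06, in the authors' deposited table). Atp5g2, with 160 and 123 normalized counts, was at -0.38 (SE 0.12, adjusted p = 0.0056) in the authors' deposited table and lost its call under total-count scaling (-0.089, adjusted p = 0.56). No pair of the 3 differed detectably: Atp5g2 minus Atp5g1 was 0.39 (95% interval -0.14 to 0.91), Atp5g3 minus Atp5g1 0.092 (-0.45 to 0.63) and Atp5g3 minus Atp5g2 -0.29 (-0.77 to 0.18). Per kilobase of transcript, Atp5g3 held 91.9% of the set's reads in GFP and 92.2% in dnMKL1, and Atp5g1 7.49% and 7.05%. Per kilobase of coding sequence the same shares were 68.1% and 69.4% for Atp5g3 and 31.5% and 30.1% for Atp5g1, whose longest transcript has 4715 bases, so the level of Atp5g1 relative to Atp5g3 depends on the length used. By either length the shares moved by less between groups than those of subunits 6a and 8.

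The membrane subunits e and f, encoded by Atp5k and Atp5j2, which help to dimerise the enzyme and bend the inner membrane, fell to 61.6% (95% interval 48.6 to 78.0) and 67.7% (95% interval 53.4 to 85.9) of the GFP level. Atp5l, subunit g, was the one member of this complex that did not pass (-0.38, SE 0.20, adjusted p = 0.14, in the authors' deposited table). Its base mean of 116 was the lowest of the complex, and RefSeq lists 2 pseudogenes of Atp5l by name. It also lists 4 of Atp5k, 3 of Cycs, 2 of Uqcrh and 1 each of Cox5b, Cox7c, Atp5c1 and Atp5f1. Reads shared with such copies may have been left out or split in the authors' counting, so levels of at least these 8 genes are uncertain. Only copies named after their gene were counted, so other members may be affected as well.

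The 3 genes that carry a prefix without being subunits differed. Atp5s (now Dmac2l, coupling factor B), whose call ended under total-count scaling (-0.18), fell to 72.1% and Atp5sl (now Dmac2, a factor of complex I assembly) to 63.9% of the GFP level, with adjusted p-values of 4.3e-05 and 1.4e-08 in the authors' deposited table. Cox4nb (now Emc8) encodes a part of a membrane protein complex of the endoplasmic reticulum and lies next to Cox4i1 on chromosome 8. It went from 445 to 454 normalized counts and did not pass (0.028, SE 0.093, adjusted p = 0.87, in the authors' deposited table), and it rose under total-count scaling (0.32, adjusted p = 0.0021).

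Assembly and regulatory factors of complexes III to V with other names mostly fell as well. Of 30 such genes 28 were tested, and 24 fell and 0 rose, with a median log2 fold change of -0.58. Over all genes tested 17.4% fell and 16.6% rose. Sco2 and Pet117 (listed as Gm20571) were at 0. The lowest was Lrpprc, which stabilises mitochondrial mRNAs, with -1.14 (SE 0.11, adjusted p = 5.0e-22) in the authors' deposited table, and Taco1, a translational activator of subunit 1 of complex IV, had -1.10 (SE 0.16). Atpif1, the inhibitor that stops complex V from splitting ATP, had the only positive value and did not pass (0.19, SE 0.10, adjusted p = 0.14, in the authors' deposited table). The list also holds 2 proteins now counted as subunits: Ndufa4 of complex IV had -0.60 (SE 0.14), and Usmg5 of complex V -0.69 (SE 0.17), in the authors' deposited table. The assembly factors of complex V itself, Atpaf1, Atpaf2 and Tmem70, had -0.71 (SE 0.13), -0.78 (SE 0.10) and -0.76 (SE 0.12) in the authors' deposited table. For complex I, the entry point for electrons from NADH, 34 of 36 genes with Nduf symbols fell and 0 rose, Ndufa4 and its paralog Ndufa4l2 among the 36, with a median of -0.66 and values from -0.98 to 0.038. That median is close to those of complexes II, III and V (-0.77, -0.64 and -0.63). For the subunits and paralogs of complex IV it was -0.51, or -0.56 over those with a base mean of at least 10. No difference between the complexes was tested. Of the genes outside the 58 members, 39.5% fell at base means from 1000 to under 10000, and 66.7% at 10000 or more. The 6 subunits of complexes III to V encoded in mitochondrial DNA were looked for by symbol. Of these, 0 were found, so they were not analysed here.

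Across the members, larger base means and longer coding sequences went with lower log2 fold changes. Over all 58 genes Spearman's rho was -0.61 for base mean, -0.44 for coding length and -0.24 for transcript length. Over the 41 subunit, paralog and cytochrome c genes whose base mean reached 1000, rho was -0.44, -0.59 and -0.48. The genes share their libraries, so these values describe the list and carry no test.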

How the data were processed

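Cardiomyocyte RNA was measured in 10 libraries, 5 a group. Per the labels' protocols, libraries were made from 500 pg of cDNA, after 8 PCR cycles on cDNA from 10 ng of RNA. Per the submitters' processing notes, the authors used STAR 2.5.3a, featureCounts (Subread 1.5.2), CASAVA 1.8 and mm10; the annotation and strand setting are not given in the sources used here. The authors' base mean is a signal, the mean normalized count of all libraries. The authors' fold change and its SE are log2 values. Their ratio is the authors' Wald statistic, a score. From that score come the deposited p-value and adjusted p-value (recomputed with a largest gap of 1.4e-07 for the adjusted values). The columns are those of DESeq2 per the file headers.

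Implied means, 95% intervals (from the SE) and isoform differences were computed in Python 3.11.15 (scipy 1.17.1), checked on simulated data. An isoform difference was tested with the sum of both SEs, the largest its SE can be; this was added after seeing the data. Intervals cover what the SE covers and no length error. Transcript length was the longest in GENCODE M21, and coding length the alternative. Symbols of all 58 members matched the RefSeq gene table, 4 through synonyms, and 45 had a promoter. Size factors came from genes with 1 read in 1 library.

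The plan's rule named all members of complexes II and III, isoform sets, assembly factors and, in complexes IV and V, the extremes; other members are given by summary. The members and lists were chosen with earlier results of these data known. Marker lists not given above were skeletal muscle (0 of 1 tested changed) and brown fat (1 of 1 tested rose). The brown fat gene that rose was Cidea, from 810 to 998 normalized counts. Ucp1 and Elovl3, the others on that list, had base means of 0.063 and 0.78 and were not tested. The rise of Cidea is therefore not read as a brown fat signal.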

Additional observations from a re-analysis of the deposited data

How the results depend on the processing

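No paired analysis was possible because the file holds no values per library; for the same reason the planned fits without 1 library, edgeR and DESeq2 fits were not run, and whether 1 library decides a value is unknown. Median-centring, and adjusting over every p-value, changed the direction or call of 0 of 58 members. Minimum base means of 10 and 100 changed 0 of the 56 and 55 members they left. An adjusted p-value under 0.01 ended the calls of Uqcr11 and Cox17, and one under 0.1 added Cox19, so that 1 complex IV assembly factor was higher.

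Total-count scaling, without and with Mkl1 left out of the totals, moved values by the shift it adds (0.29 and 0.30). Medians became -0.30 and -0.29 for all members, -0.48 and -0.47 for complex II subunits, -0.23 and -0.22 for its assembly factors, -0.35 and -0.34 for complex III, -0.22 and -0.21 for complex IV, -0.12 and -0.11 for its assembly factors, and -0.34 and -0.33 for complex V. Members that fell numbered 33 and 31, those that rose 4 and 4. Complex II assembly factors that fell numbered 1 and 1, complex IV assembly factors 2 and 2 (with 1 and 1 higher), and complex IV subunits 7 and 6. All genes higher numbered 5685 and 5808, and lower 927 and 891. The directions of Cox7a2 (0.16 and 0.17) and Cox16 (0.14 and 0.15) reversed, past no threshold. Calls ended for 14 and 16 members.

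Asking also for a log2 fold change beyond 0.5 in size kept 1489 higher and 1246 lower genes, 2735 in all, since fewer can pass, and ended the calls of 8 members; 2 complex IV assembly factors stayed lower. Coding length moved the muscle shares to 89.9% and 74.9% (Cox6a2, GFP and dnMKL1), 32.2% and 22.7% (Cox7a1) and 64.5% and 43.9% (Cox8b), with the same direction. Restricting subunits and cytochrome c to base means from 1000, a choice made after seeing the data, gave a median of -0.64 instead of -0.62. Depth limits Cox7b2, Cox4i2 and Cox6b2.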
